A study of Mus musculus with 8 samples.

Results

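At day 5 of neural differentiation, RNA of mouse 46C cells labelled LincNDIME_KO (here KO) was compared with RNA of wild-type 46C cells (WT). The comparison rests on 2 of the 8 RNA-seq libraries of the series, 1 KO and 1 WT, chosen by their labels. 46C is a line of mouse embryonic stem cells that turn green when the neural gene Sox1 comes on, and its labels give the strain C57BL/6. NDIME is a long intergenic noncoding RNA, and the title of the study places it in an axis with the transcription factor gene Mef2c. For day 5, stem cells were dissociated and left to aggregate in G-MEM with knockout serum replacement, and the cells are labelled neural progenitor cells derived from stem cells. Another day 5 library, shCtrl, comes from 46C cells with a control hairpin RNA and is used as another library of cells with NDIME. The KO and WT lines also have 1 library each at day 0, when they were stem cells on irradiated feeder fibroblasts with serum and the cytokine LIF. The labels do not say how the KO line was made, how many clones it holds, or whether libraries came from separate cultures. No feature of the files carries the name NDIME, so the deletion was not checked here.

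As background, stem cells that leave self-renewal first shut down the naive pluripotency network, pass through a formative state and then take up neural identity under Sox genes. Neural progenitors are kept dividing by Notch signalling, in which ligands on one cell trigger the cleavage of receptors on the next. The released part works with the DNA-binding protein RBPJ to switch on Hes and Hey genes. Position along the neural tube is set by Hox genes, retinoic acid and FGF from head to tail, and by hedgehog and BMP signals from ventral to dorsal.

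The libraries held 26834802 (WT), 26493161 (KO) and 25996204 (shCtrl) estimated reads at day 5, and 20883674 (WT) and 20312032 (KO) at day 0. Levels are FPKM values, which scale fragments by the length of the gene and the depth of the library. Of 21069 features, 12832 had a mean FPKM of 1 or more over KO and WT and were compared. The log2 ratio was taken on FPKM + 1, which makes ratios of scarce genes smaller. A gene is called higher or lower in KO at a ratio of 1 or more in size, which is 2-fold on that scale. There were 520 higher genes (4.05% of those compared) and 418 lower genes (3.26%), 7.31% in all. These shares are the background for the counts of list members below. The median ratio of all genes was 0.0011 and 80.0% of them lay within 1.5-fold. A group of 1 library allows neither a test nor a p-value, so every value below describes these libraries. Against shCtrl, 607 of 13041 genes were higher in KO (4.65%) and 720 lower (5.52%). In bulk RNA, fewer cells of a type and less RNA per cell cannot be told apart.

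**Figure D1:**
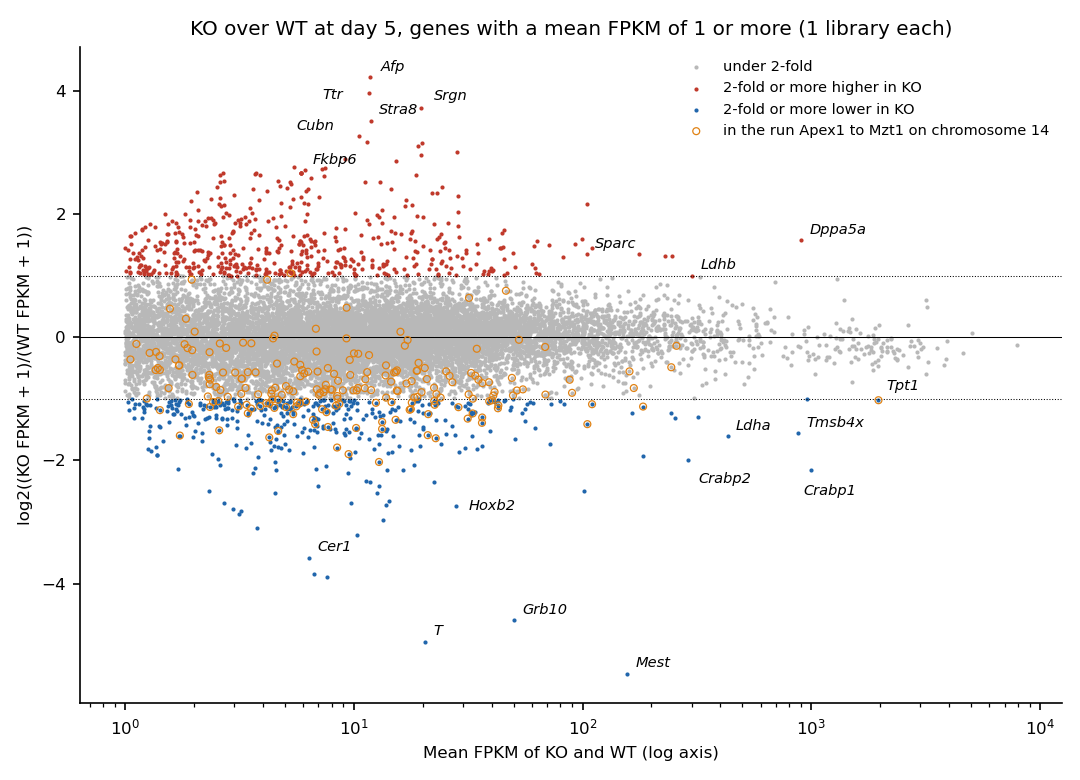
Each point is a gene, placed by its mean FPKM over KO and WT (log axis) and its log2 ratio of KO over WT at day 5, with red points 2-fold or more higher, blue points 2-fold or more lower and orange rings for genes of a run on chromosome 14. Mest, T and Grb10 lie lowest, Afp and Ttr highest, and the ringed genes sit as a band below 0.

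The label was checked on 7 markers of neural progenitors (Sox1, Sox2, Sox3, Nes, Pax6, Fabp7 and Hes5). All 7 passed the filter, and their summed level was 406 FPKM in WT, 191 in KO and 475 in shCtrl. The 5 markers of pluripotent cells (Pou5f1, Nanog, Esrrb, Zfp42 and Dppa5a) summed to 729 FPKM in WT, 1899 in KO and 494 in shCtrl. The KO library therefore had the lowest neural and the highest pluripotency sum of these 3 libraries. Visceral endoderm is an extraembryonic layer around the early embryo. Its markers (Afp, Ttr, Apoa1, Rbp4, Sox17, Gata4 and Foxa2) summed to 42.0 FPKM in WT, 91.8 in KO and 104 in shCtrl. This sum mixes genes that went opposite ways, as 4 of the 7 were higher in KO and 1, Foxa2, was lower. Foxa2, also a floor plate gene, held most of the sum in WT. Feeder fibroblast markers summed to 11.5, 13.7 and 15.7 FPKM in the same order, and blood markers to 5.64, 4.63 and 35.4. Germ cell markers summed to 10.2 FPKM in WT, 59.3 in KO and 11.9 in shCtrl. The share of the differences below that goes with these sums was not tested.

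Mef2c itself was scarce, at 0.45 FPKM in WT, 0.10 in KO and 0.50 in shCtrl, under the filter. Of its family and the class IIa histone deacetylases, which bind Mef2 proteins and restrain them, 6 of 8 members passed and none differed by 2-fold. Hdac7 stood at 8.47 FPKM in WT, 4.55 in KO and 7.51 in shCtrl, and Hdac5 at 21.1, 14.3 and 23.9. Mef2d went the other way, at 6.28 FPKM in WT, 9.42 in KO and 6.47 in shCtrl. KO lay outside both control libraries in each of these 3 genes, by less than 2-fold. Among 8 genes beside Mef2c that passed, the median ratio was -0.03. The single one past 2-fold was Nr2f1, a nuclear receptor of brain patterning, at 42.0 FPKM in WT, 13.4 in KO and 35.1 in shCtrl.

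The naive pluripotency network was higher in KO as a group, and its factors differed in how far they went. Of 14 transcription factors, 9 were higher and none lower, against 4.05% of all genes, with a median ratio of 1.29. All 14 lay above both control libraries in KO. Tbx3, a T-box factor that holds stem cells in the naive state, stood at 0.86 FPKM in WT, 5.50 in KO and 0.85 in shCtrl. Prdm14, a repressor of differentiation that also founds the germline, stood at 1.16, 5.95 and 1.22. Nanog, a homeobox gene of the network's core, stood at 47.0 FPKM in WT, 117 in KO and 36.7 in shCtrl. For these 3 genes WT and shCtrl lay close together and KO well above. The core genes shared with other cells moved least, as Pou5f1 had a ratio of 0.64 and Sox2, which neural progenitors also use, 0.08. Klf2, Klf5, Tfcp2l1 and Nr5a2 had ratios of 1.28, 1.40, 1.43 and 1.06. At day 0 the same 14 factors had a median KO over WT ratio of 0.09 and none passed 2-fold.

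Other genes of stem cells went with them, with 8 of 12 higher, none lower and a median ratio of 1.45. Fbxo15, a stem cell gene of the ubiquitin system, stood at 20.2 FPKM in WT, 70.2 in KO and 14.6 in shCtrl. Tcl1, a coactivator of the kinase Akt, stood at 3.63, 14.6 and 2.88. Spp1, the secreted protein osteopontin, stood at 20.5, 68.3 and 16.5. Formative genes, which come on as cells leave the naive state, were shifted less, with a median of 0.63, 2 of 12 higher and none lower. Both were at the threshold. Otx2, a homeobox gene of epiblast and forebrain, stood at 18.2 FPKM in WT, 37.6 in KO and 35.0 in shCtrl, so KO was close to shCtrl. Etv5, an ETS factor downstream of FGF, stood at 30.0 FPKM in WT, 61.1 in KO and 18.1 in shCtrl, apart from both. Fgf5, a marker of the primed epiblast, had a ratio of 0.76, under 2-fold.

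Genes of radial glia and neural progenitors were lower in KO, all 14 that passed below 0 and below both control libraries. Of these 14, 7 were lower by 2-fold or more, against 3.26% of all genes, and the median ratio was -0.88. Vim, an intermediate filament of progenitors and fibroblasts, stood at 290 FPKM in WT, 75.6 in KO and 267 in shCtrl. Nes, the filament protein nestin, stood at 45.7, 11.8 and 40.2. The fatty acid carrier Fabp7 had the lowest ratio of the list, -2.50. Prom1 and Msi1, a membrane protein and an RNA-binding protein of neural stem cells, had ratios of -1.11 and -1.06. Hmga2, a chromatin protein of young progenitors, stood at 66.5 FPKM in WT, 32.6 in KO and 51.9 in shCtrl. The POU factors of the neural plate, Pou3f3 and Pou3f2, had ratios of -1.48 and -1.23. Sox1, the earliest neural gene and the seat of the reporter, was much less shifted, at 15.8 FPKM in WT, 12.1 in KO and 13.6 in shCtrl. Sox3 had a ratio of -0.80 and Pax6 of -0.51, both under 2-fold.

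**Figure D2:**
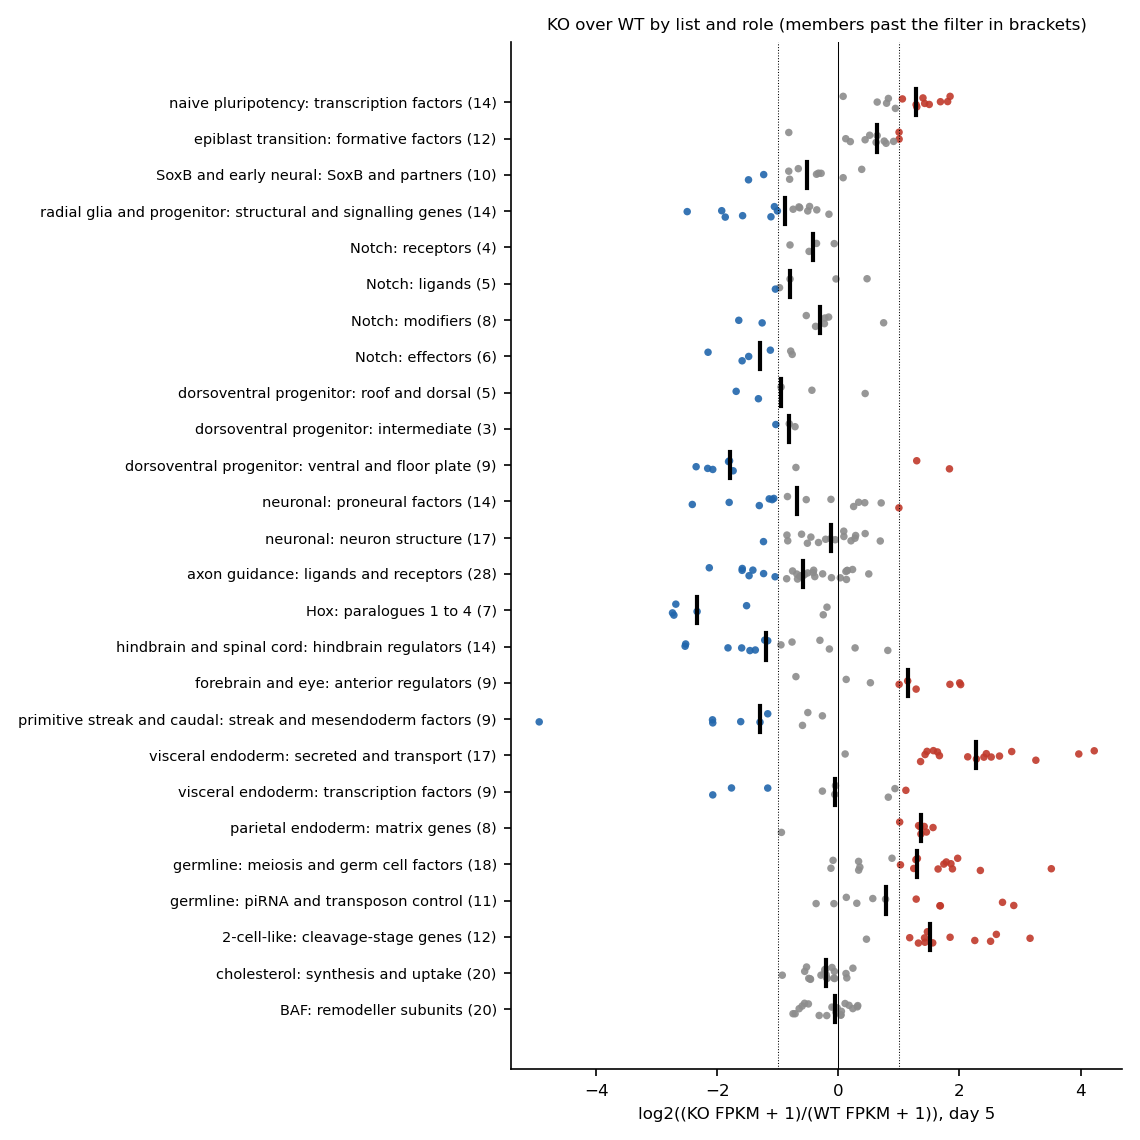
Each point is a list member past the filter, placed by its log2 ratio of KO over WT at day 5, with red points 2-fold or more higher, blue points 2-fold or more lower and black bars at the median of each role. Secreted visceral endoderm genes lie to the right with a median of 2.28, while early Hox genes lie to the left with a median of -2.33 and BAF subunits stay around 0.

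Notch genes were lower in KO, 21 of 23 that passed lying below both control libraries, and the target genes were shifted most. The 4 receptors had a median ratio of -0.42 and none passed 2-fold. Notch1 stood at 9.42 FPKM in WT, 4.99 in KO and 8.52 in shCtrl, and Notch2 at 8.48, 8.04 and 8.96. The 5 ligands that passed had a median of -0.80, with 1 past 2-fold. Dll1 and Dll3, ligands of neural progenitors and newborn neurons, had ratios of -0.97 and -1.04. Among 8 modifiers, the fringe glycosyltransferases Lfng and Mfng, which tune receptor choice, were lower with ratios of -1.64 and -1.26. Rbpj, the DNA-binding partner of the receptors, went against the rest at 25.0 FPKM in WT, 42.6 in KO and 23.8 in shCtrl. Of 6 effectors that passed, 4 were lower, against 3.26% of all genes, and none higher, with a median of -1.30 (-1.53 over shCtrl).

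Hes5, a repressor that Notch keeps on in progenitors, stood at 23.3 FPKM in WT, 4.47 in KO and 36.04 in shCtrl. As a share of all reads, the level in KO was 0.191 of that in WT (95% Clopper-Pearson interval 0.159 to 0.229., which covers counting error only) Nrarp, a feedback inhibitor of the pathway, stood at 30.0 FPKM in WT, 10.1 in KO and 32.4 in shCtrl. Hey1, a repressor related to the Hes proteins, stood at 14.3, 4.07 and 15.8. In all 3 genes KO lay below both control libraries. Hes1, which signals other than Notch also control, had a smaller shift, at 30.6, 17.6 and 34.7 FPKM.

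The core of the RBPJ recognition sequence, TGGGAA, was searched on both strands of the RefSeq promoters of the effectors (GRCm38.p6, 250 bases before to 50 after the start). Of 9 effectors, 5 had a promoter in the table. The core was in 3 of their 6 promoters (50%), against 25.6% of all 32851 promoters. Of 3 matched genes that were lower, Hes5 carried it and Hes6 and Nrarp did not, while Hes7 and Hey2, which missed the filter, did. The 250 bases before the start of Hes5 (chr4:154960673-154960922, plus strand) are shown because they carry this match at 2 places, 226 and 82 bases before the start, once on each strand. Capitals mark the matches. A match is a description of the letters and not evidence of binding.

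Hes5: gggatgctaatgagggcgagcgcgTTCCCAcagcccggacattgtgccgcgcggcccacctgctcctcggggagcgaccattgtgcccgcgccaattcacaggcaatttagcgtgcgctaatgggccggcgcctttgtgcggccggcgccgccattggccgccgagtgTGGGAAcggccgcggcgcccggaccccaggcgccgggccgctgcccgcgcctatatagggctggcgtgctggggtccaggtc

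Ventral genes of the neural tube were among the most shifted, with 6 of 9 lower, 2 higher and a median ratio of -1.80. Over all genes, 3.26% were lower and 4.05% higher. Shh, the hedgehog ligand made by floor plate and notochord, stood at 20.3 FPKM in WT, 3.18 in KO and 28.5 in shCtrl. Foxa2, a forkhead factor of floor plate and endoderm, stood at 30.4, 6.45 and 37.4. The homeobox gene Nkx6-1, a mark of ventral progenitors, stood at 27.6, 5.40 and 34.6. In each of these 3 genes KO lay far below both control libraries. Nkx6-2, Nkx2-9 and Nkx2-2 had ratios of -1.81, -1.80 and -1.74. The oligodendrocyte lineage factors Olig1 and Olig2 were the exceptions. Olig1 stood at 0.11 FPKM in WT, 2.96 in KO and 0.33 in shCtrl from 6 reads in WT and 164 in KO. As a share of all reads this is 27.7 times the WT level (95% counting interval 12.5 to 76.5). Olig2 stood at 1.30, 4.64 and 2.48 FPKM. Dorsal and intermediate genes also lay mostly below 0. Msx3 and Olig3, factors of the dorsal neural tube, had ratios of -1.69 and -1.32, and Dbx1, a homeobox gene of the middle of the tube, -1.03. Gli1, a transcriptional readout of hedgehog signalling, stood at 19.4 FPKM in WT, 7.54 in KO and 18.2 in shCtrl. It was lower at day 0 too, at 3.24 RPKM in KO against 12.02 in WT. The hedgehog receptor Ptch1, another such readout, was looked up after these values were seen and had a ratio of -1.21 at day 5.

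Many genes that mark the hindbrain were lower in KO, and the early Hox genes had the lower median. Of 12 Hox genes of paralogue groups 1 to 4, 7 passed, 5 were lower and none higher, with a median ratio of -2.33 (-1.63 over shCtrl). Over all genes, 3.26% were lower. Hoxb2 stood at 49.3 FPKM in WT, 6.53 in KO and 35.6 in shCtrl, and as a share of all reads the KO level was 0.132 of that in WT (95% counting interval 0.116 to 0.150). Hoxa2, on another chromosome, stood at 19.6, 3.09 and 11.7 FPKM. Hoxb4 was scarce in all 3 libraries and had a ratio of -0.19. None of 11 genes of groups 5 to 8 passed the filter, so the trunk part of the clusters was at or below the limit of the comparison. Of groups 9 to 13, only Hoxb9 passed, at 1.98 FPKM in WT, 0.20 in KO and 2.94 in shCtrl.

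Among 14 hindbrain regulators that passed, 8 were lower, against 3.26% of all genes, none was higher and the median was -1.19. KO lay below both controls in 12 of the 14. Lhx5, a LIM-homeobox gene, lay between them with a ratio of 0.82. Phox2a, a factor of hindbrain motor and visceral neurons, stood at 8.42 FPKM in WT, 0.64 in KO and 7.71 in shCtrl, a ratio of -2.52. Meis1 and Meis3, cofactors of Hox proteins, stood at 26.8 and 22.8 FPKM in WT and at 9.74 and 6.88 in KO. Egr2, the factor of hindbrain segments known as Krox20, stood at 2.55 FPKM in WT, 0.29 in KO and 1.03 in shCtrl. Isl1, a factor of motor neurons, stood at 7.35, 1.36 and 13.6 FPKM. Midbrain and isthmus genes moved less, with 2 of 9 lower, none higher and a median of -0.40. Of these, En2 stood at 7.07 FPKM in WT, 1.49 in KO and 4.61 in shCtrl.

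Retinoic acid genes were mixed, with 2 of 16 higher and 5 lower. Synthesis and transport genes had a median ratio of -0.17 and receptors and targets -0.10. The cellular carriers were lower, Crabp1 at 1634 FPKM in WT, 364 in KO and 850 in shCtrl, and Crabp2 at 464, 115 and 333. Crabp1 and Crabp2 were thus among the most abundant genes past 2-fold, and KO lay below both control libraries in each. The degrading enzymes of the hindbrain, Cyp26b1 and Cyp26c1, had ratios of -1.81 and -2.15, while Cyp26a1 stood at 8.67, 13.4 and 33.3 FPKM, between the controls. Receptors were mixed, as Rarg was higher with a ratio of 1.03 and Rara had -0.10. The enzymes that make retinoic acid, Aldh1a1, Aldh1a2 and Aldh1a3, did not pass the filter.

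Anterior genes of forebrain and eye lay above WT, with 6 of 9 higher and none lower, but for several of them shCtrl lay as high as KO. The median ratio was 1.14 over WT and 0.10 over shCtrl. Lhx2, a LIM-homeobox gene of forebrain and eye field, stood at 3.38 FPKM in WT, 16.8 in KO and 6.12 in shCtrl. Lhx9, its close relative, stood at 0.13, 3.53 and 0.26. Fezf2, a zinc-finger factor of forebrain, stood at 1.18, 4.31 and 1.55. These 3 were above both controls in KO. Hesx1, of the anterior plate and pituitary, stood at 0.91 FPKM in WT, 5.85 in KO and 6.55 in shCtrl, and was not.

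**Figure D3:**
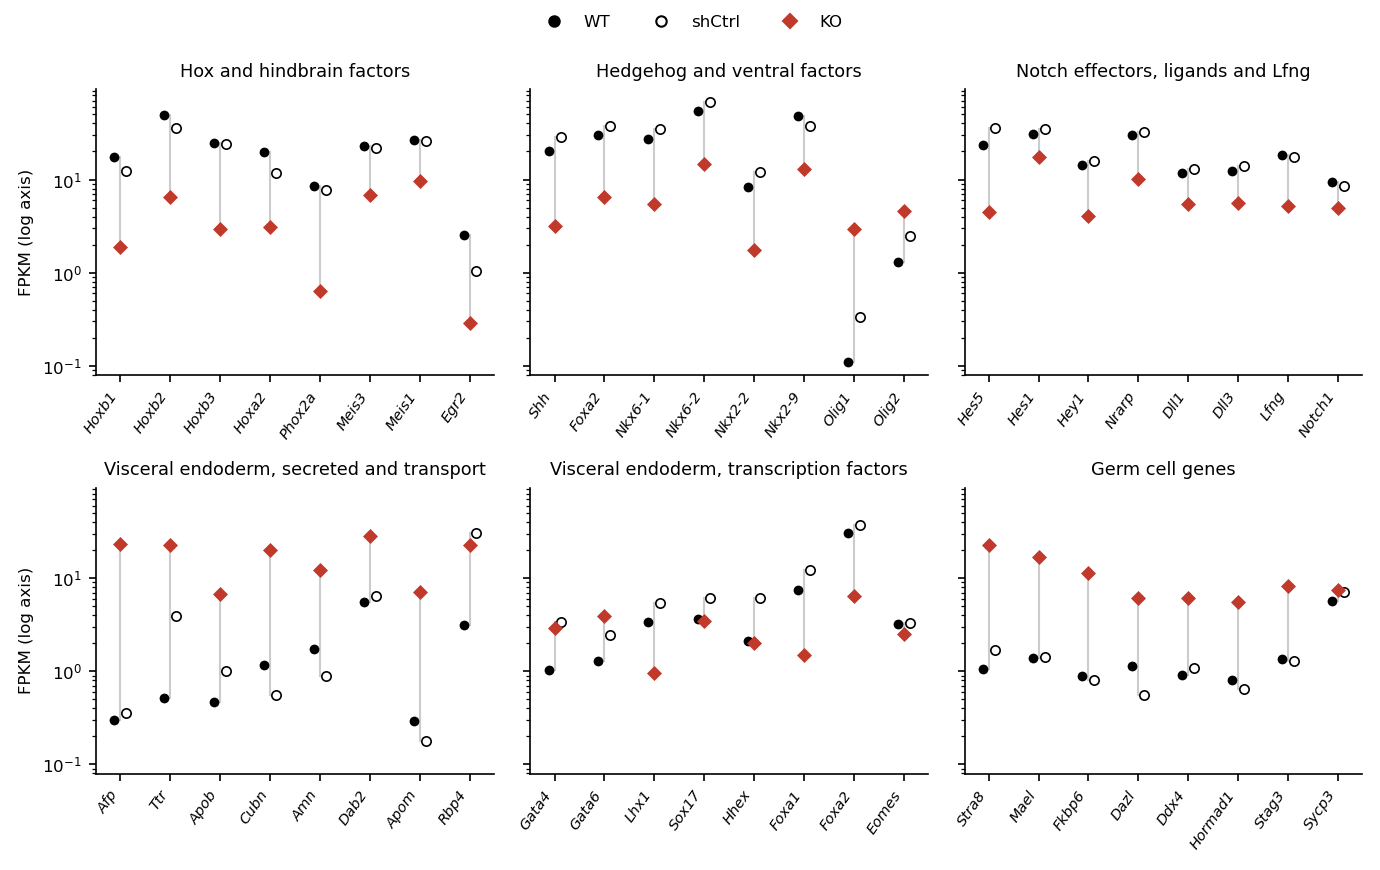
Levels of 8 genes in each of 6 groups are given in FPKM (log axis) in WT (black), shCtrl (open) and KO (red diamonds), 1 library each, with a grey line over their range. KO lies below both controls for the Hox, hindbrain and Notch genes drawn and above both for most secreted endoderm and germ cell genes, with Rbp4 and Gata4 between the controls.

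Genes of neuron birth and of mature neurons differed. Of 14 proneural factors and their partners that passed, 6 were lower and 1 higher, with a median ratio of -0.69. Neurod4 stood at 12.5 FPKM in WT, 1.53 in KO and 14.6 in shCtrl. Neurog1 and Neurog2 had ratios of -1.14 and -1.31. Neurod1 was higher than in both controls, at 1.60, 4.20 and 2.40 FPKM. Structural genes of neurons had a median of -0.13 over WT (-0.67 over shCtrl), with 1 of 17 lower and none higher. Tubb3, the tubulin of young neurons, stood at 109 FPKM in WT, 148 in KO and 148 in shCtrl. Nefl, a neurofilament gene, stood at 46.8, 19.3 and 94.4 FPKM, and it lies in the lower run on chromosome 14 described below. Its neighbour in that run, Nefm, had a ratio of 0.09.

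Guidance genes for growing axons were lower in part. Of 28 that passed, 7 were lower, against 3.26% of all genes, and none higher. Of the same 28, 21 lay below both controls, and the median ratio was -0.58. All 3 genes of the Slit ligands, which repel axons at the midline, were past 2-fold. Slit1 stood at 11.7 FPKM in WT, 1.90 in KO and 11.5 in shCtrl. Slit2 and Slit3 had ratios of -1.59 and -1.41, while their receptors Robo1 and Robo2 had 0.15 and -0.42. Ntn1, the attractant netrin of the floor plate, stood at 29.6, 9.17 and 35.6 FPKM, and its receptor Dcc had a ratio of 0.12. The receptor past 2-fold was Plxna2, a plexin, at 7.46 FPKM in WT, 3.10 in KO and 5.84 in shCtrl.

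Visceral endoderm genes split between products and regulators. Of 17 secreted and transport genes that passed, 16 were higher, against 4.05% of all genes, and none lower. Of the same 17, 15 lay above both controls, and the median ratio was 2.28. Afp, a serum protein of yolk sac and fetal liver, stood at 0.30 FPKM in WT, 23.3 in KO and 0.36 in shCtrl. As a share of all reads this is 78.5 times the WT level (95% counting interval 48.1 to 138, from 16 and 1240 reads). Uptake receptors went with it. Cubn stood at 1.18 FPKM in WT, 19.9 in KO and 0.56 in shCtrl. Its partner Amn, which anchors it in the membrane, stood at 1.75, 12.4 and 0.90. Dab2, an adaptor of the same uptake route, stood at 5.60, 28.0 and 6.36. In these genes KO alone was high. Apoc2, a lipoprotein part, was not listed in WT or shCtrl, was taken as 0 there and stood at 2.11 FPKM in KO. Lipoprotein genes included Apob, at 0.47 FPKM in WT, 6.78 in KO and 1.00 in shCtrl, and Mttp, which loads lipid onto it, at 2.45, 9.24 and 2.77. Rbp4 and Apoa1 were higher in shCtrl than in KO, at 30.2 and 22.1 FPKM against 22.9 and 10.0. Cst3, a protease inhibitor of many tissues, was alike in all 3 libraries at 143, 154 and 153 FPKM.

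The transcription factors of the same layer had a median ratio of -0.06, with 1 of 9 higher and 3 lower. Gata6 stood at 1.29 FPKM in WT, 3.96 in KO and 2.44 in shCtrl. Gata4 stood at 1.03, 2.88 and 3.40 FPKM, inside the chromosome 14 run. Sox17 and Hhex, both of endoderm, had ratios of -0.06 and -0.05. Foxa1 stood at 7.43 FPKM in WT, 1.48 in KO and 12.2 in shCtrl, and Foxa2 was lower as given above. Hnf4a, a regulator of liver and yolk sac genes, stood at 0.16 FPKM in WT, 1.55 in KO and 0.64 in shCtrl and missed the filter. The anterior inhibitors were divided as well, since Cer1 stood at 12.6 FPKM in WT, 0.14 in KO and 13.3 in shCtrl while Lefty1 stood at 42.2, 86.6 and 26.6.

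Basement membrane genes, which parietal endoderm makes in large amounts, were higher in KO in 7 of 8 cases, with a median ratio of 1.36 and none lower. Lama1 and Lamb1, laminin chains, had ratios of 1.56 and 1.42. Col4a1 stood at 23.1 FPKM in WT, 64.9 in KO and 27.1 in shCtrl, and Sparc, a matrix protein that binds collagen, at 58.4, 151 and 55.8. The exception was Plat, a protease, with a ratio of -0.94. Among trophoblast genes 4 of 8 were higher and 1 lower, against 4.05% and 3.26% of all genes, with a median of 0.99. They include the X-linked homeobox genes Rhox6 (5.30 FPKM in WT, 28.5 in KO, 6.87 in shCtrl) and Rhox9 (4.73, 21.2 and 7.97). The defining factors Elf5 and Hand1 stayed at 0.34 and 0.50 FPKM in KO, and Cdx2 was lower with a ratio of -1.13.

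Streak and mesendoderm genes were lower, with 6 of 9 past 2-fold, none higher and a median ratio of -1.29. Over all genes, 3.26% were lower. T, the brachyury gene of streak and notochord, stood at 40.5 FPKM in WT, 0.35 in KO and 36.6 in shCtrl, from 2246 reads in WT and 19 in KO. As a share of all reads this is 0.00857 times the WT level (95% counting interval 0.00515 to 0.0134). At day 0 it stood at 6.25 RPKM in WT and 1.19 in KO. Wnt8a, a ligand of the streak, had a ratio of -1.61, and Mixl1, an early streak gene, missed the filter with 0.17 FPKM in KO. Nodal itself, which induces the streak, was not lower, at 10.2 FPKM in WT, 17.7 in KO and 5.38 in shCtrl, and its co-receptor gene Tdgf1 had a ratio of 0.80. Chrd, a BMP antagonist of notochord and node, stood at 6.62 FPKM in WT, 0.65 in KO and 7.81 in shCtrl. The BMP targets Id1, Id2 and Id3 had ratios of -0.99, -0.63 and -0.94. FGF ligands and receptors had a median of -0.21, with Fgf4, a stem cell ligand, higher at 1.31 and the receptor Fgfr3 lower at -1.32, and FGF targets had a median of 0.09. Wnt inhibitors Sfrp1 and Sfrp2, abundant in neural progenitors, had ratios of -1.37 and -1.08, while the feedback target Axin2 had -0.18.

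Germ cell genes were higher in KO, with a median ratio of 1.14. Of the 38 that passed, 20 were higher and none lower, against 4.05% and 3.26% of all genes. Meiotic genes accounted for 12 of these 20. Stra8, the retinoic acid target that licenses meiosis, stood at 1.07 FPKM in WT, 22.7 in KO and 1.69 in shCtrl. Sohlh2, a helix-loop-helix factor of germ cells, stood at 6.96, 39.5 and 3.73. Dazl, an RNA-binding protein of germ cells, stood at 1.14, 6.16 and 0.55. Against these, Sycp3 and Rec8, parts of the meiotic chromosome axis, had ratios of 0.36 and -0.09, and Rec8 lies in the lower run on chromosome 14. In the piRNA pathway, which silences transposons in germ cells, 5 of 11 were higher and none lower, led by Mael and Fkbp6 with ratios of 2.90 and 2.71. Mov10l1, the helicase that makes piRNAs, stood at 0.26 FPKM in WT, 3.05 in KO and 0.15 in shCtrl. The piRNA-binding proteins Piwil2 and Piwil4 stayed at 1.21 and 0.59 FPKM in KO and missed the filter. Most of this list was already expressed at day 0. There, 37 of the 38 genes passed, with a median KO over WT ratio of 0.007, 3 higher and 3 lower. Stra8 then stood at 12.9 RPKM in WT and 23.6 in KO, and Mael at 3.84 and 8.46.

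The palindromic E-box CACGTG was searched in the RefSeq promoters of 42 germline list genes that had one, on windows of the same 300 bases. It was in 17 of 52 promoters (32.7%), belonging to 14 genes, against 7.15% of all promoters and 10.1% of the promoters of genes that passed the filter. Of 17 matched genes past 2-fold, 6 carried it, against 14 of all 42 matched genes, so carrying it did not set the called genes apart. Sycp3, with 2 matches, had a ratio of 0.36. The 250 bases before the start of Ddx4, Fkbp6 and Hormad1 are shown because these genes were higher in KO and carry the match near the start. Ddx4 encodes a helicase of germ cells, Fkbp6 a chaperone of the piRNA pathway and Hormad1 a protein of the meiotic axis. The stretches are chr13:112652311-112652560 (minus strand), chr5:135350045-135350294 (minus strand) and chr3:95559427-95559676 (plus strand) of GRCm38.p6, written 5′ to 3′ on the strand of the gene with the match in capitals. The nearest match lies 29, 37 and 20 bases before the start, in that order.

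Ddx4: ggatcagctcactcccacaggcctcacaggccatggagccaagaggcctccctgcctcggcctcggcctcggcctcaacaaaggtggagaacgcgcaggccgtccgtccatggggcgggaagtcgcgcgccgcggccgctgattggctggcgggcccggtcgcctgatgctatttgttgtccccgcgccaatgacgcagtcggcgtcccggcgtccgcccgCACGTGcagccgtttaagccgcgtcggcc

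Fkbp6: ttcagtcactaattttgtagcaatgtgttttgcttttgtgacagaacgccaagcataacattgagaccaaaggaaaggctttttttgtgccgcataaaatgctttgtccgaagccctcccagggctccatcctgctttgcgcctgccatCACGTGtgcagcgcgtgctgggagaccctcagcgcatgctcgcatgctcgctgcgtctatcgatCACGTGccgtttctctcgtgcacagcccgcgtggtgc

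Hormad1: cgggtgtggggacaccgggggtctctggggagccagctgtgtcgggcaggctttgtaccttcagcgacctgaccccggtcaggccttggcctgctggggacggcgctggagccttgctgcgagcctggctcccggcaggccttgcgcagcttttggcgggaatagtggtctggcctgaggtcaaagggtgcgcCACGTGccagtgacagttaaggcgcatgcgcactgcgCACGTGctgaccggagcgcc

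Ddx4 stood at 0.91 FPKM in WT, 6.05 in KO and 1.08 in shCtrl. Hormad1 stood at 0.80, 5.53 and 0.65. Both were above the controls at day 5 and close to WT at day 0, with 5.57 RPKM in KO against 6.36 for Ddx4 and 8.10 against 7.67 for Hormad1. Stag3, a cohesin subunit of meiosis, was higher in KO at both days, at 8.21 against 1.35 FPKM and 23.4 against 6.11 RPKM. Genes of DNA demethylation, which germ cells use, included Tet1, at 4.68 FPKM in WT, 12.3 in KO and 3.34 in shCtrl. Gadd45a and Gadd45b, stress genes that also serve demethylation, had ratios of 1.21 and 1.37, while Tet2 and Tet3 had -0.10 and -0.36. No DNA methyltransferase gene reached 2-fold, and Dnmt3l, at a ratio of 0.91, came nearest.

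Genes of the 2-cell embryo were higher in 11 of 12 cases that passed, and this list was as far above WT at day 0, with 9 of 10 higher and a median ratio of 1.86 (1.51 at day 5). Zscan4d stood at 0.87 FPKM in WT, 9.68 in KO and 0.53 in shCtrl at day 5, and at 0.75 RPKM in WT and 9.92 in KO at day 0. Dux, the factor that switches the program on, stayed at 0.52 FPKM in KO and 0.02 in WT and missed the filter. Copies of Zscan4 and Usp17l are nearly alike in sequence, so the split of reads among them is uncertain. Of 18 imprinted genes expressed from the paternal allele that passed, 5 were lower and none higher, with a median of -0.54. Nnat, a membrane protein of brain, stood at 22.5 FPKM in WT, 3.38 in KO and 34.5 in shCtrl, and Peg12, Ndn and Sgce had ratios of -1.34, -1.06 and -1.03. Mest was lower at both days, at 5.99 against 306 FPKM and 1.90 against 26.6 RPKM. Genes expressed from the maternal allele had a median of -0.10, with 1 of 14 higher and 1 lower. Phlda2, a growth inhibitor of placenta, stood at 13.5 FPKM in WT, 44.0 in KO and 12.5 in shCtrl. Grb10, an adaptor that restrains growth, stood at 96.8 FPKM in WT, 3.06 in KO and 24.7 in shCtrl, so the controls differed from each other as well.

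Several groups of general cell function gave counts near the background. None of 20 cholesterol genes, 20 BAF remodeller subunits, 17 p53 targets or 16 epithelial genes that passed differed by 2-fold, with medians of -0.20, -0.05, 0.25 and 0.44. With 7.31% of all genes past 2-fold, a count of 0 in lists of this size is near the background. Under 2-fold, 17 of the 20 cholesterol genes lay below both controls and 3 above both. Of the 17 p53 targets, 12 lay above both and none below both. Over all 12832 genes compared, 5505 lay below both and 5274 above both. The day 0 medians of these lists were -0.32 for cholesterol and 0.68 for p53 targets. Replication and mitosis genes had a median of 0.22. D-type cyclins differed, as Ccnd2 stood at 77.7 FPKM in WT, 24.0 in KO and 67.3 in shCtrl and Ccnd3 at 79.3, 79.0 and 64.3. Of 23 polycomb subunits 2 were higher and none lower. Phf19, which guides the complex to its targets, stood at 2.12, 8.73 and 1.65 FPKM, and Cbx7, the chromobox protein of stem cells, at 12.4, 31.4 and 14.2. Of 20 glycolysis genes that passed, with a median of 0.09, 1 was higher (5.0%) and 3 lower (15.0%). Over all genes, 4.05% were higher and 3.26% lower, so the lower share of this list was above the background. The lactate dehydrogenases went opposite ways. Ldha stood at 648 FPKM in WT, 212 in KO and 660 in shCtrl, and Ldhb at 200, 401 and 198. Autism-associated genes, which the title of the study names, had a median of 0.0023 over 32 that passed, with 1 higher and 1 lower, which is near the background of 7.31%. The higher gene was Kmt2c, a histone methyltransferase gene, with a ratio of 1.04.

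Among abundant genes, Tmsb4x, an actin-binding peptide, stood at 1308 FPKM in WT, 446 in KO and 1263 in shCtrl. Cd24a, a surface protein of neural cells, stood at 457, 186 and 513. The metallothionein Mt2 stood at 141, 352 and 262 FPKM, and the small heat shock protein Hspb1 at 48.8, 150 and 26.3. A few genes were not listed in KO or in WT alone of the pair and were taken as 0. Tmed2, a cargo receptor of the secretory route, had 284 reads in WT and was not listed in KO. That is at least 93.5-fold lower against a floor of 3 reads per library, with 5.42 FPKM in WT and 5.58 in shCtrl. The bound takes an unlisted gene to have at most 3 reads, which was not checked. Tmed2 was also not listed in the day 5 library of cells with a hairpin against Mef2c. At day 0 it stood at 84.7 RPKM in WT and 87.4 in KO, so the KO line expressed it then. Gkn2, a stomach protein, was not listed in WT and had 99 reads in KO, at least 33.4-fold higher against the same floor.

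Ratios also went together along chromosomes, in 14 runs of neighbouring genes, 8 lower and 6 higher. The longest was on chromosome 14, where 207 consecutive genes from Apex1 to Mzt1, in the gene order of GRCm38.p6, had a median ratio of -0.83, and 195 of them lay below 0. The median of shCtrl over WT for the same genes was 0.02, and that of KO over shCtrl was -0.83. The median corresponds to 0.564 times the WT level. At day 0, 184 of these genes passed, 173 lay below 0 and the median was -0.66, or 0.633 times WT. The 20 genes before the run had a median of 0.25 and the 20 after it 0.05. Chromosome 14 also held 2 short higher runs of 15 genes each, Anxa11 to Hesx1 with a median of 0.55 (0.10 at day 0) and Ncoa4 to Mmrn2 with 0.53 (0.46 at day 0).

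The run was found with windows of 15 genes whose median lay 0.5 or more from 0, so its ends are known to a few genes only. From the values, read after they were seen, the step at its start falls between Rnase4, with a ratio of -0.18 at day 5 and -0.27 at day 0, and Mettl17, with -1.34 and -0.88. At its end, Dach1 had a ratio of -1.12 at day 5 and the next gene, Mzt1, -0.19. Its most abundant gene, Tpt1, a translation-associated protein, stood at 2635 FPKM in WT, 1297 in KO and 2690 in shCtrl. Nedd8, a ubiquitin-like modifier, stood at 253, 115 and 259, and the proteasome subunit Psmb5 at 214, 121 and 220. Among members of the gene lists, Fzd3, a Wnt receptor, stood at 15.5 FPKM in WT, 3.44 in KO and 17.1 in shCtrl. Rb1, Chd8 and Fdft1 had ratios of -0.79, -0.57 and -0.93. The run holds 62 of the 418 lower genes (14.8%) and 1 higher gene, Rnf17. Without the run there were 356 lower and 519 higher genes. In the authors' deposited table, 89 of the genes listed as lower lie in it.

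**Figure D4:**
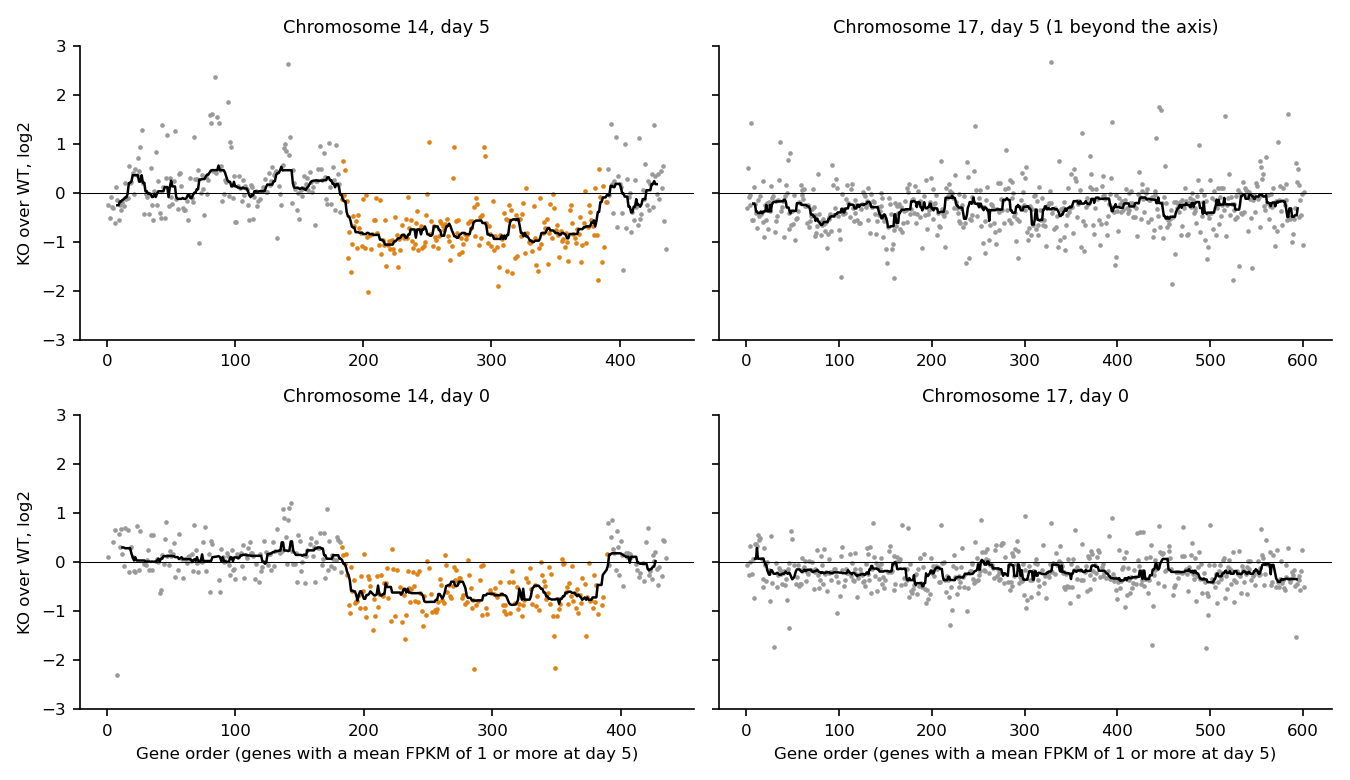
Genes of chromosomes 14 and 17 are placed in their order along the chromosome against the log2 ratio of KO over WT at day 5 (top) and day 0 (bottom), with the median of 15 neighbours as a black line and the run from Apex1 to Mzt1 in orange. On chromosome 14 the line steps down and back at both days, and on chromosome 17 it stays below 0 at day 5 and is mostly below 0 at day 0.

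Chromosome 17, which held 6 of the lower runs, was shifted along its length by less, with a median of -0.30 over 601 genes, 79.5% of them below 0, and -0.21 at day 0 (74.3% below 0). The other chromosomes, without 14, 17 and Y, had medians between -0.08 and 0.08 at day 5. Chromosome 11 had a median of 0.01 at day 5 and -0.38 at day 0, when 85.1% of its 981 genes lay below 0. Hoxb1, Hoxb2, Hoxb3, Chd3 and Grb10 lie on chromosome 11 and were lower at day 5 while the chromosome as a whole was not. Of the genes named above, T, Dll1, Pou5f1, Ccnd3, Dazl and Lama1 lie on chromosome 17. The last 2 were higher in KO against its general shift. Pou5f1, with a ratio of 0.64, also lay above 0, by less than 2-fold.

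Most differences of day 5 were not seen at day 0, whose RPKM table was scaled apart from the day 5 files, so ratios are taken within each day. In stem cells, 162 genes were higher in KO (1.35% of 12002 that passed) and 190 lower (1.58%), which is 2.93% in all. Of the 520 genes higher at day 5, 360 passed at day 0 and 50 of these were higher there (13.9%), while 13 were lower. Of the 418 lower genes, 226 passed and 18 were lower (7.96%), while 2 were higher. The shared genes were 36.2% of 138 genes higher at day 0 that the day 5 files also hold, and 9.78% of 184 lower ones. Besides the Zscan4 and Usp17l genes, Tuba3a, a tubulin of testis, was higher at both days, at 36.5 against 3.23 FPKM and 68.8 against 20.5 RPKM. Chd3, a chromatin remodeller, was lower at both, at 10.6 against 37.6 FPKM and 3.21 against 11.4 RPKM, and so were Cadm4, an adhesion protein, and Klk8, a protease of brain.

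**Figure D5:**
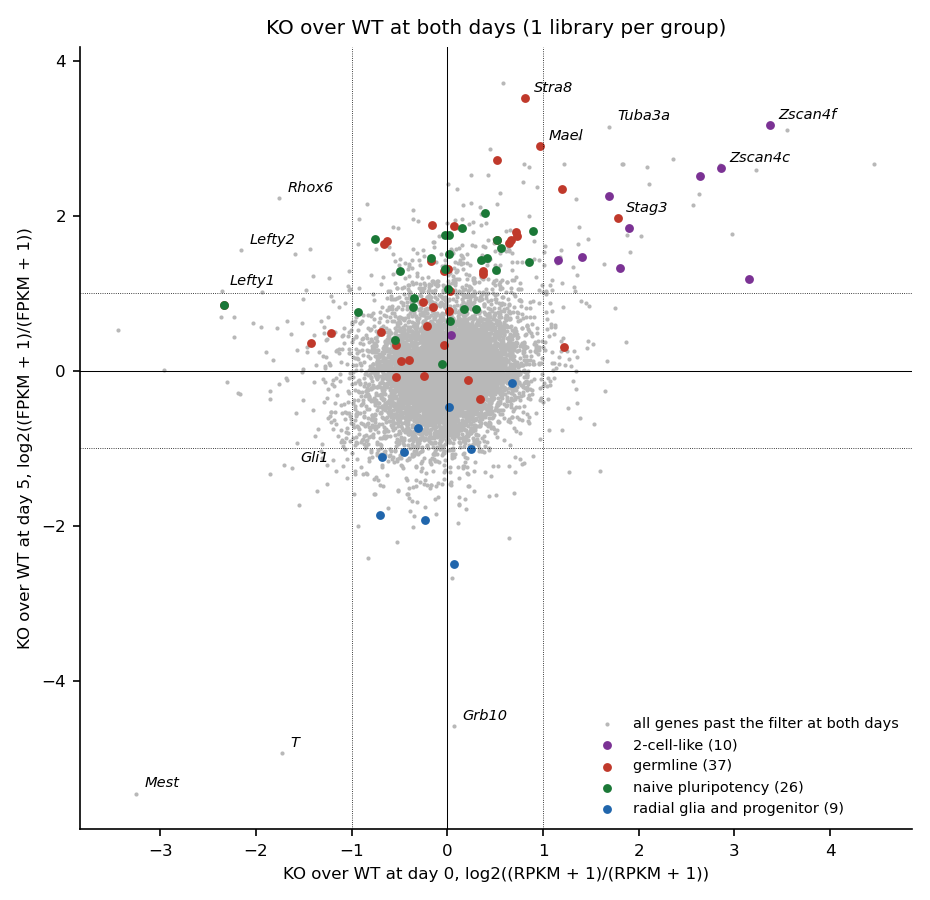
Each point is a gene past the filter at both days, placed by its log2 ratio of KO over WT at day 0 (RPKM) and at day 5 (FPKM), with members of 4 gene lists in colour. Most 2-cell-like genes lie to the upper right, naive pluripotency genes lie high at day 5 around 0 at day 0, and Mest and T lie low at both.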

How the data were processed

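The libraries were made from polyadenylated RNA, 1 for each group of the labels, and the day comes from the text of the series. Per the file headers, the authors deposited estimated counts and FPKM values for each day 5 library, and RPKM values with estimated counts for day 0. Their deposited table of KO against WT holds log2 ratios, p-values and false discovery rates from a Poisson method, of which only the direction and the number of genes were used. HISAT, HISAT2, Bowtie, Bowtie2, RSEM and build mm9 are named, with no role or version, per the submitters' processing notes. Strand use in counting is not stated there, so antisense and overlapping genes cannot be told apart.

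Genes not listed in a library (the lowest listed value is 0.01 FPKM) were taken as 0. Ratios are log2((KO + 1)/(WT + 1)) for genes with a mean of 1 or more, and 2-fold counted as higher or lower. The steps were tested on simulated data. Counting intervals are exact Clopper-Pearson limits at 95% of the ratio of read shares, and cover counting error only. Gene order and promoters come from RefSeq (GRCm38.p6), matched for 19547 of 21069 features. That assembly is not mm9, so its coordinates were used only to order genes along chromosomes and to place promoters. Python 3.11.15, pandas 2.3.3, scipy 1.17.1 and R 4.3.3 were used, with edgeR 4.0.16 and DESeq2 1.42.0 for alternative scaling factors only.

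The 42 gene lists (881 genes, 7 not in the files) and the comparison itself were chosen with earlier results of these data known. Genes were named by rule. The rule takes the Mef2 family, the 15 highest and 15 lowest ratios, list members (all where 12 or fewer passed, otherwise the 5 highest and 5 lowest) and the 8 most abundant genes each way. It adds the 8 genes each way with the largest shift at both days, and the ends and 5 most abundant genes of each chromosomal run. Other genes named are list members or genes that were looked up after the values were seen, and they are given as context. Alternatives were another pseudocount, filter, unit with its scaling, fold and control library. Results of some genes are not reported here.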

Additional observations from a re-analysis of the deposited data

Results flagged for a closer look

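With values of both days in view, 13 named genes were 2-fold or more apart in opposite directions, with 1 library a group at each day, and the difference was not tested. They are given as log2 ratios of KO over WT at day 5 and then at day 0. The Nodal inhibitors Lefty1 and Lefty2 were at 1.02 and -2.36, and at 1.55 and -2.15. The X-linked homeobox genes Rhox5 and Rhox6 were at 1.57 and -1.43, and at 2.23 and -1.76. Genes of the interferon response were Irf1 at 1.29 and -1.02, Irgm1 at 1.09 and -1.04, and Oasl2 at 1.51 and -1.59. Tdrd12, a gene of the piRNA pathway, was at 1.01 and -1.94. Adam19, a membrane protease, was at 1.04 and -1.48, Rab3il1 at 1.04 and -1.02, and St6galnac2, a sialyltransferase, at 1.05 and -1.02. Lower at day 5 and higher at day 0 were the homeobox genes Hoxb9, at -1.31 and 1.27, and Nkx1-2, at -1.29 and 1.60. Of the 13 genes, 5 lie on chromosome 11 (Adam19, Hoxb9, Irf1, Irgm1 and St6galnac2), whose median ratio was -0.38 at day 0 and 0.01 at day 5.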

How the results depend on the processing

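The count of higher genes (520) was 743 with a pseudocount of 0.1 and 607 against shCtrl. With estimated counts in place of FPKM it was 713 under TMM factors and 721 under DESeq2 size factors. The change of unit also changed which genes passed, 14235 under TMM and 14237 under DESeq2 in place of 12832. The factors themselves were nearly alike in WT and KO, at 0.996 and 1.001 for TMM and 1.013 and 1.000 for DESeq2. Their effect apart from the unit and filter was not tested. With FPKM rescaled to the same total per library (TPM), there were 760 higher and 499 lower genes. The higher count was 260 with a mean of 5 or more, 1205 at 1.5-fold, 76 at 4-fold and 1151 in the authors' deposited table. The count of lower genes (418) was 716 with a pseudocount of 0.1, 242 with a mean of 5 or more and 720 against shCtrl. It was 1359 at 1.5-fold, 40 at 4-fold and 1102 in the authors' deposited table. With estimated counts in place of FPKM it was 693 under TMM factors and 681 under DESeq2 size factors. Genes 2-fold past both WT and shCtrl numbered 437 higher and 340 lower. Of the genes shared with day 0, 18 were higher with a mean of 5 or more, and lower ones were 7 with that filter and 49 with a pseudocount of 0.1, these alternatives being chosen after seeing the data. Against shCtrl, with the filter set on that pair, the medians of the forebrain list (-0.012) and the blood and endothelium list (-1.94) turned sign, as did Hesx1 (-0.14), Rbp4 (-0.38), Apoa1 (-1.07) and Tagln (0.0636). Of 769 genes examined singly against shCtrl, a turn of sign was counted only for genes 2-fold or more apart from WT, and these 4 turned. Of the others, 484 moved by more than their counting error and 281 did not. Genes under 2-fold that changed sign, such as Cyp26a1 and Gata4, are among those others. A run of 29 genes on chromosome 4 from Dnajc16 to Zfp933 turned from 0.56 to -0.23 at day 0. The cause was not tested. Of the other list medians under the alternatives run, 318 moved by less than 0.25 and 57 by more. None of them changed sign among lists with a median of 0.5 or more in size. For smaller medians a change of sign was not counted. No paired analysis was possible because each group has 1 library, and leaving out a replicate was not possible for the same reason. Differences between cultures or clones are not measured by these data, and scarce genes rest on few reads.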
